A study of Homo sapiens with 22 samples.

Results

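Broad H3K4me3 domains are stretches of the genome, many kilobases long, over which the trimethyl mark on lysine 4 of histone H3 runs without a gap. In THP-1 cells 456 of the 21953 control H3K4me3 peaks on chromosomes 1 to 22, X and Y spanned 8000 bp or more, which is 2.08% of the peaks and, with 5.16 of 62.8 Mb, 8.21% of the bases in them. These 456 peaks were chosen by their width in the control list alone, so their control width is a description and is tested nowhere. Nearest to the limit, peaks at FAT1 (7970 bp), ZBTB2 (7990 bp) and LHX2 (7991 bp) were left out, and peaks at OIP5/NUSAP1 (8001 bp), NKX3-2 (8007 bp) and PPIH/YBX1 (8018 bp) were kept.

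THP-1 is an established human monocytic leukaemia line known to carry a KMT2A::MLLT3 gene fusion. A lenti-virus brought in sh-control or sh-QKI5, a hairpin against QKI5, the nuclear isoform of the RNA-binding protein QKI, and the series text calls the control cells untreated. For either condition there were 2 samples each of H3K4me3 ChIP, Pol II ChIP and QKI5 CLIP, with inputs, among 22 samples in 10 groups, and 6 peak lists were deposited, so that every assay has a single list in each condition and both replicates are pooled in it. No time in culture, clone or hairpin sequence is given in the sources used here, and the knockdown itself was not measured in these lists. Neither the reads nor the replicates' own signal was used, so depth is unknown, no difference between conditions has a replicate check, and none has a p-value. Intervals on shares are exact (Clopper-Pearson) 95% binomial intervals and those on medians are exact 95% order-statistic intervals. They describe counting and the scatter among domains, never the spread between cultures.

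H3K4me3 is written at active promoters by the SET1 and MLL family of methyltransferases, and most promoters carry it as a peak close to the transcription start. Domains that reach far into the gene body are known to sit on genes that define a cell's identity, on tumour suppressor genes and on other genes with much engaged RNA polymerase II (Pol II). MLL fusion proteins are known to keep a set of genes with the HOXA cluster among them active in leukaemia cells. QKI5 is best known for binding RNA and steering splicing, and the series title asks about its part in transcription during monocytic differentiation.

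The label was checked against marker genes. Of 12 monocytic marker genes 11 lay under a control H3K4me3 peak, MPO being the one without, and the median of their widest peaks was 4579 bp. Of 36 genes of other cell types 12 lay under a peak. CEBPA and IRF8, transcription factors of the monocyte lineage, were in domains of 8077 and 12468 bp. Below the limit, in bp, were TYROBP (6834), SPI1 (6648), KLF4 (5943), CEBPB (5635), LILRB4 (3523), LYZ (3357), CSF3R (3318), CD33 (2740) and ITGB2 (1393). Of the other cell types' genes PAX6, an eye and brain regulator, alone was under a broad domain (8697 bp). The next widest among them, CD79A (5175 bp), CD4 (4752 bp) and PAX5 (3859 bp), exceeded several monocytic markers, LILRB4 and LYZ among them.

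The domains held more microRNA genes than narrower peaks, and some mature sequences are given because they belong to known myeloid and leukaemia loci. In the RefSeq gene list, 51 microRNA genes lay in 42 of the 456 domains, 9.21% (interval 6.72 to 12.2), against 30 of 1009 peaks of 6000 to under 8000 bp, 2.97% (2.01 to 4.22). Per megabase these were 9.88 and 4.99 microRNA genes. A count per megabase still gives every member of a cluster full weight, and 6 of the 51 genes are those of a single cluster. The RefSeq sequence table (GRCh38.p14) placed 42 hairpins inside 34 domains and gave 68 mature sequences for them. Below, the seed, bases 2 to 8, is in capitals.

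The MIR17HG domain, 18945 bp on chromosome 13, held the 6 hairpins of the miR-17-92 cluster, which is known to promote cell proliferation. Members sharing a seed stand next to each other.
miR-17-5p: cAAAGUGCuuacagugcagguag
miR-20a-5p: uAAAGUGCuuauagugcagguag
miR-18a-5p: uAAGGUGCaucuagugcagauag
miR-19a-3p: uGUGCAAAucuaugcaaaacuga
miR-19b-3p: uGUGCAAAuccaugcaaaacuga
miR-92a-3p: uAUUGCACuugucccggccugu
The seeds of miR-17-5p and miR-20a-5p are the same, and so are those of miR-19a-3p and miR-19b-3p.

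Further microRNAs show the blood-cell and HOXA loci. MIR223HG, host of miR-223, a microRNA of granulocytes and monocytes, lay in a domain of 8335 bp. The haematopoietic miR-142 lay in the 16997 bp domain at TSPOAP1/SUPT4H1, miR-196b in the 44507 bp HOXA domain, and miR-15b with miR-16-2 in the 14027 bp domain at IFT80/SMC4.
miR-223-3p: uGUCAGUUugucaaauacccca
miR-142-3p: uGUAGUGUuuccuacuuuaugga
miR-142-5p: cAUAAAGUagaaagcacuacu
miR-196b-5p: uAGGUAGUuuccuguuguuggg
miR-15b-5p: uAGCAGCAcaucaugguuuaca
miR-16-5p: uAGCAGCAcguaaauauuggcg
The seeds of miR-15b-5p and miR-16-5p are the same. Knockdown to control width ratios, defined further on, were 0.921 at MIR17HG, 0.971 at MIR223HG, 0.987 at TSPOAP1/SUPT4H1 and 0.848 at IFT80/SMC4.

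The widest domain covered the 5' part of the HOXA cluster, from HOXA9 through HOXA10 and HOXA11 to HOXA13, at chromosome 7, 27159011 to 27203517 (GRCh38.p5), 44507 bp. It held the ends of 5 protein-coding genes, the lncRNA genes HOXA10-AS, HOXA11-AS and HOTTIP, and MIR196B. Next came the domain from COMMD3 and BMI1, a Polycomb subunit needed for self-renewal, to SPAG6 (chromosome 10, 22309080 to 22346843, 37764 bp). It was followed by SATB1, a chromatin organiser (chromosome 3, 18413138 to 18449777, 36640 bp), and by SKIDA1/MLLT10, the latter a known fusion partner of MLL (chromosome 10, 21505693 to 21542101, 36409 bp). A domain of 35816 bp on chromosome 22 (46051566 to 46087381) ran over the lncRNA genes PRR34-AS1 and MIRLET7BHG. FAF1/CDKN2C, the latter a cell cycle inhibitor, had 32755 bp, PARP8 32116 bp, MBNL1, a splicing regulator, 26272 bp, the adhesion receptor ADGRL2 24633 bp, and EHBP1/OTX1 23398 bp. ZEB2 (22195 bp), a transcription factor, was also among the 18 domains of 20000 bp or more. The median domain was 9720.5 bp wide (interval 9442 to 9968), and 252 of 456 were narrower than 10000 bp.

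Most domains sat on the end of a protein-coding gene. An end of a coding gene lay inside 378 domains, 82.9% (interval 79.1 to 86.2), against 88.5% of peaks of 6000 to under 8000 bp and 87.1% of those of over 4000 to under 6000 bp. Another 48 domains overlapped a coding gene without holding its end, as at MBNL1 and GATA2. Of the 30 with no coding gene, 22 overlapped a lncRNA gene, among them MIR17HG, both DLEU2 domains (17856 and 16847 bp), NEAT1 (13892 bp), a nuclear scaffold RNA, and MALAT1 (11300 bp). The remaining 8 held neither. The widest of these, on chromosome 4 (180051518 to 180071163, 19646 bp), was covered wholly by Pol II peaks in control and to 95.6% in knockdown. Ends of 5 coding genes lay in the HOXA domain and in a 10587 bp domain over the histone genes H2BC13, H2AC13, H3C10, H2AC14 and H2BC14.

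Of 20037 protein-coding genes, 602 had an end in a domain, 3.0%, and the members of 10 gene lists can be read beside that share. Among 26 genes of MLL fusions and leukaemic self-renewal 12 had an end in a domain (46.2%). They were HOXA9, HOXA10, HOXA11, PBX3, a partner of HOX proteins, CDK6, a cell cycle kinase, BCL2, an inhibitor of apoptosis, MYC, JMJD1C, SENP6, ZEB2, LMO2 and CPEB2, in domains of 8523 to 44507 bp. Of 30 myeloid transcription factors 8 did (26.7%): CEBPA, IRF8, GFI1 (15973 bp), MYB (11804 bp), LMO2 (10011 bp), IKZF1 (8056 bp), BCL6 (9442 bp) and ZEB2. RUNX1 (13911 bp) and MEF2C (19330 bp) were overlapped without their end. Both lists share LMO2, ZEB2 and MEF2C, and the lists were drawn up with earlier results of these data known.

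Regulators of RNA were also frequent. Of 31 splicing factors and RNA-binding proteins 9 had an end in a domain (29.0%), namely SRSF2, TRA2B (14411 bp), PTBP1 (8726 bp), HNRNPA1, HNRNPA2B1, HNRNPD, HNRNPK, HNRNPU (17704 bp) and QKI itself (10245 bp). Of 28 cell cycle and apoptosis genes 8 did (28.6%), for example CDKN1B (15077 bp), CDK4 (9280 bp), MDM2 (9111 bp) and BCL2L11 (9133 bp). Of 30 immediate early and inflammatory regulators 6 did (20%), among them ZFP36 (11167 bp) and ZFP36L2 (11063 bp), which bind and destabilise RNA, and DUSP6 (8859 bp), a phosphatase that acts on ERK. Of 34 surface and effector genes of monocytes and macrophages 1 did (2.94%, near the share of all coding genes), the granule protein gene AZU1, whose 18486 bp domain also holds PLPPR3. None of 24 chemokines and cytokines did. Chromatin regulators gave 3 of 31 (9.68%; ARID1A, ARID1B and BCOR), ribosomal protein genes 3 of 35 (8.57%; RPLP0 and RPS2 among them), and genes of other cell types 0 of 36.

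The domains extended mainly into the transcribed side of their genes, as narrower peaks did. In the 275 domains whose coding starts in the RefSeq promoter table lay on a single strand, a median of 2973 bp lay upstream of the first start and 6990 bp downstream. The median share of the width downstream was 72.3% (interval 68.5 to 74.8). The first start is the most upstream of all coding starts listed in the peak, alternative starts included. Further starts in a peak can therefore only add to the downstream share. In narrower peaks it was 67.8% (6000 to under 8000 bp), 66.9% (over 4000 to under 6000 bp) and 69.1% (over 2000 to 4000 bp). More than 50% of the width lay downstream in 81.5% of these domains, against 82.7, 87.9 and 89.4% of peaks in the same 3 classes. A further 88 domains, 19.3%, held coding starts on both strands, against 22.1% of peaks of 6000 to under 8000 bp.

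**Figure D1:**
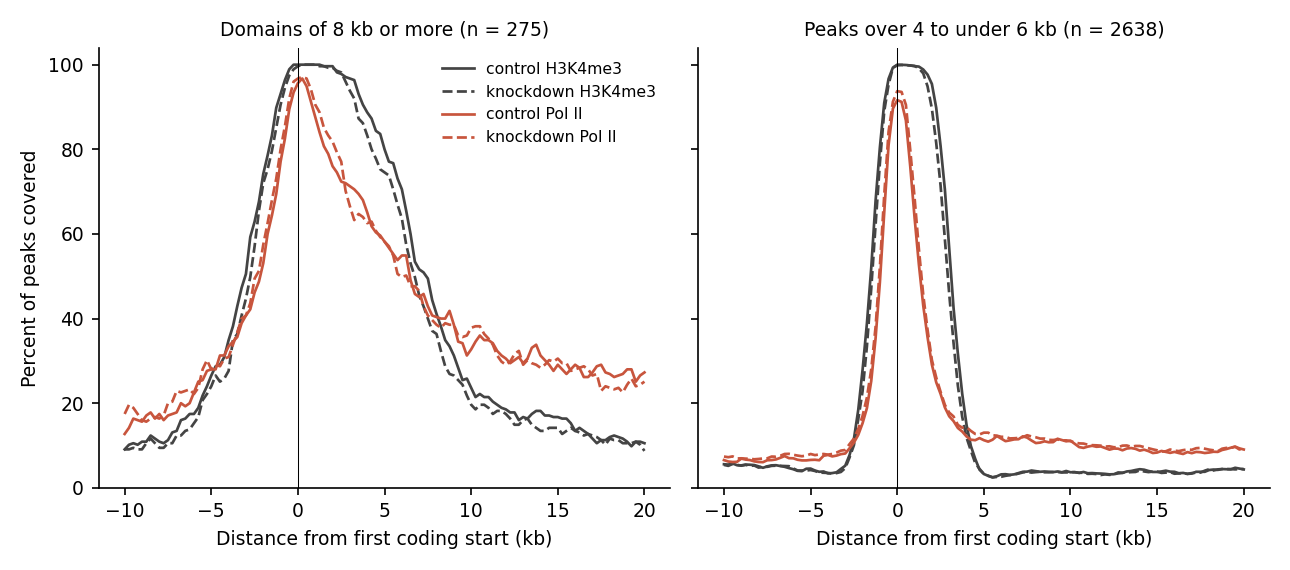
Percent of peaks covered by each of the 4 ChIP lists (y axis) at each distance from the first coding start (x axis, kb, positive in the direction of transcription), for 275 broad domains (left) and 2638 peaks of over 4000 to under 6000 bp (right). Solid lines are control and dashed lines knockdown; Pol II cover of the broad domains remains at 58.2% at 5 kb downstream in both conditions, where it is 11.3 and 13.0% for the narrower peaks.

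Pol II followed the mark downstream. At the first start, 95.6% of the 275 domains were covered by a control Pol II peak and 96.7% by a knockdown one. At 5000 bp downstream 80.0% were still covered by control H3K4me3 and 58.2% by Pol II in each condition. At 10000 bp downstream H3K4me3 covered 23.6% and Pol II 32.7% in control, and 19.6% and 37.8% in knockdown. For the 2638 peaks of over 4000 to under 6000 bp, Pol II cover was 91.6% at the start and 11.3% at 5000 bp in control. There H3K4me3 cover is limited by the width of the class, and Pol II cover is not.

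Sequences around 4 of the starts show how unlike these promoters are. The 300 bases printed run from 250 before to 50 after a RefSeq start (GRCh38.p14), on the strand given, with each CG dinucleotide in capitals. HOXA9 stands for the widest domain, ZEB2 for a myeloid regulator with few CG dinucleotides, MIR17HG for the microRNA cluster above, and ABCA2 for the most CG dinucleotides among the 704 coding promoters, alternative starts included, inside the domains.
HOXA9 (chr7:27165488-27165787, minus strand): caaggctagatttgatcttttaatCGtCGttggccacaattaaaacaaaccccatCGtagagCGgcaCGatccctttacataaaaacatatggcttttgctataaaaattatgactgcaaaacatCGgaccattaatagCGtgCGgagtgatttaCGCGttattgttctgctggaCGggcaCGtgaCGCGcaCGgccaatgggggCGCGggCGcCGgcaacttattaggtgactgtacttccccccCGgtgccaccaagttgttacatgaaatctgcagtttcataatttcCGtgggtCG
ZEB2 (chr2:144520070-144520369, minus strand): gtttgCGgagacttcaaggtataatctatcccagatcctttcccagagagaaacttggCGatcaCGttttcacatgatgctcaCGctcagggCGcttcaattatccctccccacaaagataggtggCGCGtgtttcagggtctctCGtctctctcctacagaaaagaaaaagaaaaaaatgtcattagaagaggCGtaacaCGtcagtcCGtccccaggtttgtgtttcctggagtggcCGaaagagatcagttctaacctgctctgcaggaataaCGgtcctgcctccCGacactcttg
MIR17HG (chr13:91347437-91347736, plus strand): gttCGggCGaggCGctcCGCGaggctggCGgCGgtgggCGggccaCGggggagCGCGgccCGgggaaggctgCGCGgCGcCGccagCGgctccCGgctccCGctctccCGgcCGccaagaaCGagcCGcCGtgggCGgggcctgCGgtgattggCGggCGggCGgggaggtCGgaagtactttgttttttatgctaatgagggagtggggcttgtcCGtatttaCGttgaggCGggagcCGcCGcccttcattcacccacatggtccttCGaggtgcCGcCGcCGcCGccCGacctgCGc
ABCA2 (chr9:137028188-137028487, minus strand): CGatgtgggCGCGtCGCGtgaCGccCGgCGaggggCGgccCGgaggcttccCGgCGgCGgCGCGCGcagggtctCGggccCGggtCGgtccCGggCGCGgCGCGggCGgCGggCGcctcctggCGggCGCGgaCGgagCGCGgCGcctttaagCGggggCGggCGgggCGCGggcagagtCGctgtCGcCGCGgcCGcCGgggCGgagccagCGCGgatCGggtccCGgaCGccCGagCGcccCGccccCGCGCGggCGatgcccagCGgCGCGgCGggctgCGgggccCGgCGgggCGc
They hold 22, 14, 42 and 66 CG dinucleotides, in that order. The HOXA9 stretch also holds the letters TATAAA and CCAAT.

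With 1 promoter counted per gene, 489 genes had a promoter inside a domain, and their median of 9.0 CG dinucleotides per 100 bases (interval 8.67 to 9.33) was near that of narrower classes. Those were 9.33 for peaks of 6000 to under 8000 bp, 9.67 for over 4000 to under 6000 bp and 9.0 for over 2000 to 4000 bp, against 1.67 for genes without a control peak. The letters TATAAA, searched on both strands, were in 8.18% of the 489 promoters (interval 5.91 to 11.0). They were in 6.13, 4.01 and 4.96% in the same 3 narrower classes, in 18.5% of promoters without a peak and in 9.63% of all 15843. CCAAT was in 40.9% of the 489 promoters, in 39.8% of those in peaks of 6000 to under 8000 bp, in 38.9% of those in peaks of over 4000 to under 6000 bp and in 36.4% of all promoters. GGGCGG was in 74.6%, against 72.3 and 75.05% in the same 2 narrower classes and 58.5% of all, and CCGGAAG in 18.8%, against 20.2, 23.1 and 14.2%. The domains did not stand apart from narrower peaks in these letters. Further shares set the 489 promoters against all promoters. Those in peaks of 6000 to under 8000 bp and of over 4000 to under 6000 bp follow in that order. TGANTCA, the AP-1 site, was in 3.68%, against 5.75, 3.02 and 3.30%, and in 10.2% of promoters without a peak. The C/EBP palindrome TTGCGCAA was in 0 of 489, an upper bound of 0.752%, against 0.177, 0.377 and 0.191%. The cyclic AMP response element TGACGTCA was in 3.48%, against 2.59, 2.73 and 4.15%. The YY1 site AAGATGGCG was in 2.86%, against 2.74, 4.34 and 5.08%. The NRF1 site was in 2.45%, against 1.75, 2.45 and 2.81%. No motif searched contains another, both strands were read for each, and a match of letters is a description, not a site in use.

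The domains were close to always occupied by Pol II, and the wider the domain the more of it was covered. A control Pol II peak overlapped 449 of 456 domains, 98.5% (interval 96.9 to 99.4), and a knockdown one 453, 99.3% (98.1 to 99.9), where 65.6 and 68.3% of all control H3K4me3 peaks were overlapped. For peaks of 6000 to under 8000 bp the shares were 98.1 and 98.8%, which the domains do not exceed beyond the intervals. The share of each peak that Pol II covered did differ. The median domain was covered to 77.4% in control (74.2 to 80.9) and to 76.8% in knockdown (72.6 to 79.9). Peaks of 6000 to under 8000 bp were covered to 61.2 and 63.4%, and those of over 2000 to 4000 bp to 44.8 and 48.0%. Control Pol II covered 46 domains wholly, 151 to at least 90% and 88 to less than 50%, and a single Pol II peak of 8000 bp or more met 205 of them. Across domains, width and control Pol II cover gave a Spearman rho of 0.31 over 456 domains, a description of 2 lists from the same cells.

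**Figure D2:**
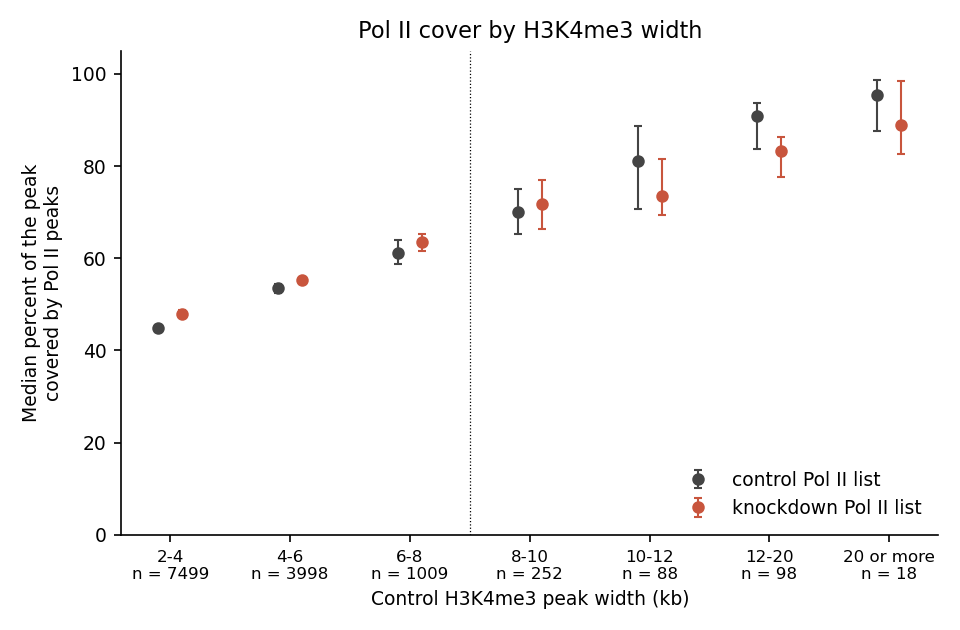
Median percent of a control H3K4me3 peak that Pol II peaks cover (y axis) by the width of the peak (x axis, kb), with exact 95% intervals of the median over peaks; black is the control and red the knockdown Pol II list. Left of the dotted line are peaks below the limit, right of it the 456 domains, where control cover goes from 70.0% at 8 to 10 kb to 95.5% at 20 kb or more.

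Of the 46 domains that control Pol II covered wholly, some examples follow. TASL, an adaptor of innate immune signalling (14309 bp), CDK6 (15724 bp), TRA2B (14411 bp), RUNX1 (13911 bp), NEAT1, EEF1A1, a translation factor (8526 bp), and MIR223HG were covered to 100% in both lists. The longest control Pol II peak to meet a domain was 70422 bp, over the MIRLET7BHG domain, and the knockdown peak there was 60072 bp. The MIR17HG domain lay within a 47201 bp Pol II peak in control and under a 34111 bp peak in knockdown, covered to 100% and 98.7%.

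At the other extreme 7 domains had no control Pol II peak, most of them at genes known from development. They were LHX4 (9166 bp), RGMB (8612 bp), ZFHX4 (11616 bp), PAX6 (8697 bp), FGF9 (8811 bp), ALOXE3/HES7 (11359 bp) and a domain over MIR129-2 on chromosome 11 (8384 bp). ZFHX4, PAX6 and FGF9 had none in knockdown either. In the other 4, knockdown Pol II covered 6.91% (LHX4), 5.82% (RGMB), 11.2% (ALOXE3/HES7) and 7.53% (MIR129-2). Low among those with control Pol II were NR2F1 (6.13% in control, 15.8% in knockdown), GPR160 (9.94 and 23.1%), ZBTB24 (15.4 and 32.8%) and NAV3 (15.5 and 12.3%). All 7 domains without control Pol II still had an H3K4me3 peak in knockdown, at 0.813 (ZFHX4) to 0.989 (MIR129-2) of the control width.

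The knockdown H3K4me3 list kept a peak at every domain, with a width close to that in control. All 456 were overlapped by a knockdown peak and covered to at least 50% by such peaks, where 88.0% of all control H3K4me3 peaks were overlapped; since all 1009 peaks of 6000 to under 8000 bp were too, this does not set the domains apart. The knockdown to control width ratio is the summed width of the knockdown peaks that overlap a domain, divided by its control width. Its median was 0.954 (interval 0.944 to 0.963), and 332 of 456 domains were below 1. Choosing peaks for a large control width favours ratios below 1 whatever the condition, so the ratio is also given for other choices. The 404 knockdown peaks of 8000 bp or more, chosen by their knockdown width, had a median ratio of 0.984 (0.975 to 0.992). The 453 loci chosen by the mean of both widths, a choice made after seeing the data, had 0.969 (0.960 to 0.976). All 3 medians and the upper ends of their intervals were below 1. Narrower peaks were mostly below 1 as well. Peaks of 6000 to under 8000 bp gave 0.950 when chosen in control and 0.999 when chosen in knockdown, those of over 4000 to under 6000 bp 0.948 and 0.984, those of over 2000 to 4000 bp 0.983 and 0.966, and all shared peaks 0.982 and 0.975.

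**Figure D3:**
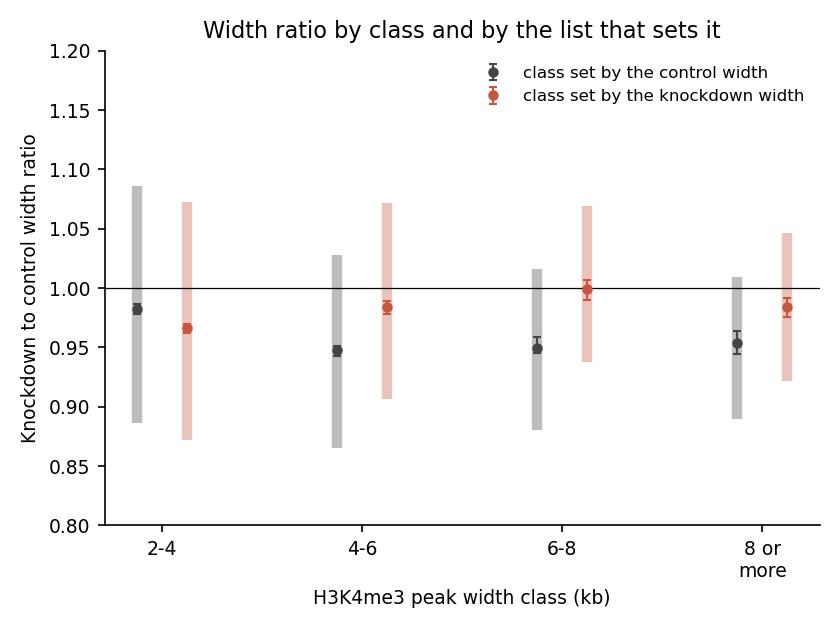
Knockdown to control width ratio (y axis) by H3K4me3 width class (x axis, kb), with classes set by the control width (black) or by the knockdown width (red). Points are medians with exact 95% intervals over peaks, pale bars run from the first to the third quartile, and broad domains sit at 0.954 and 0.984, and the narrower classes lie below or close to the line at 1 as well.

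The edges moved little. The knockdown edge lay a median of 145.5 bp inside the control edge at the lower coordinate and 131 bp inside at the higher, and 354 of 456 domains (77.6%) kept both edges within 1000 bp. Both knockdown edges were inside in 179 domains and both outside in 64. Choosing peaks for a large control width favours edges inside as well, and these counts are given for the domains only. In the 275 domains with a coding start on a single strand, the upstream edge lay 130 bp inside (interval 64 to 165) and the downstream edge 189 bp inside (98 to 272), and these intervals overlap. By summed knockdown width 86 domains, 18.9%, were under 8000 bp. Chosen the other way round, 41 of the 404 knockdown domains (10.1%) were under it in control.

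Many domains were broken into pieces in the knockdown list, more often than narrower peaks. More than 1 knockdown peak lay over 90 of 456 domains, 19.7% (interval 16.2 to 23.7), against 6.64% (5.18 to 8.36) of peaks of 6000 to under 8000 bp and 2.05% (1.63 to 2.54) of those of over 4000 to under 6000 bp. The share went up with width inside the group, from 12.7% of the 252 domains of 8000 to under 10000 bp to 33.7% of the 98 of 12000 to under 20000 bp and 9 of the 18 of 20000 bp or more. The reverse comparison gave a lower share, as 50 of the 404 knockdown domains, 12.4% (9.33 to 16.0), lay over more than 1 control peak, against 5.80% of knockdown peaks of 6000 to under 8000 bp. In knockdown domains this share was 8.18% of 220 at 8000 to under 10000 bp and 14.6% of 82 at 10000 to under 12000 bp. It was 21.3% of 89 at 12000 to under 20000 bp. At 20000 bp or more it was 1 of 13, too few to tell whether the rise went on. Peaks chosen as unbroken in a list can be broken only in the other. In knockdown 76 domains had 2 pieces, 11 had 3, PARP8 had 4, an ELF1 domain had 5 and ADGRL2 had 8.

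**Figure D4:**
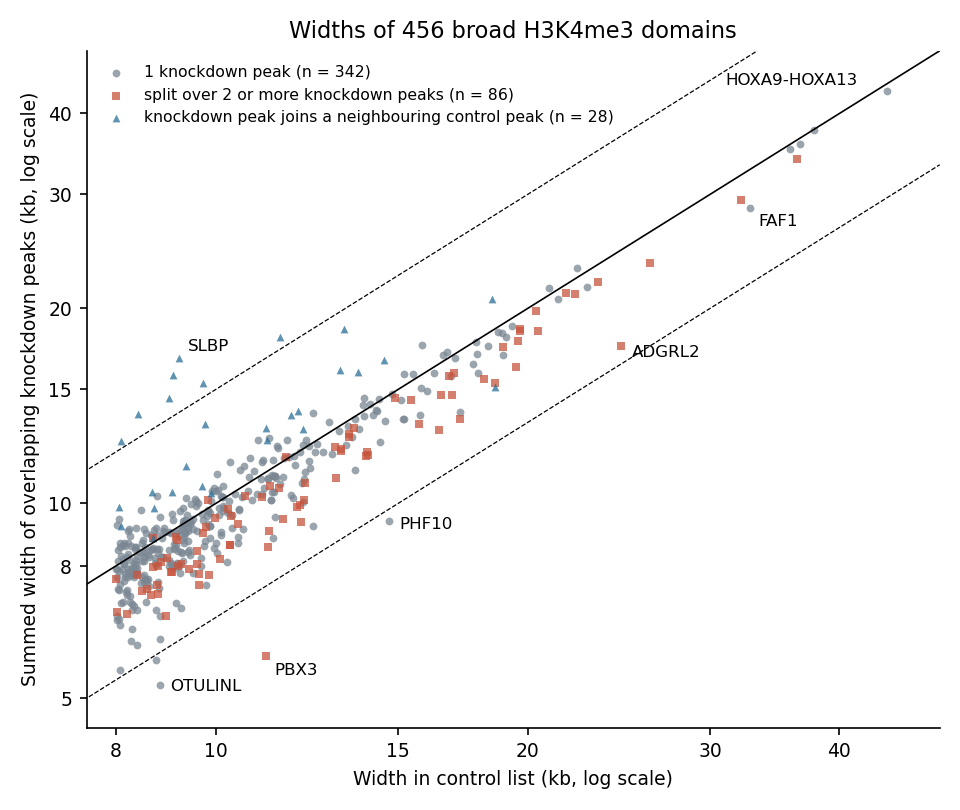
Width in the control list (x axis, kb, log scale) against the summed width of overlapping knockdown peaks (y axis, kb, log scale) for the 456 domains, 1 point each; the solid line marks equal width and the dashed lines a 1.5 times difference. Grey circles have 1 knockdown peak, red squares more than 1, and blue triangles (28 domains) a knockdown peak that also overlaps another control peak, as all 7 points above the upper dashed line do.

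By summed width few domains differed by 1.5 times or more. At least 1.5 times narrower were 4 of 456, 0.877% (interval 0.240 to 2.23), against 3.76% of all shared control peaks and 1.22% of those of 4000 to under 8000 bp. When only the widest knockdown peak of each domain was counted, 45 were. At PBX3 a domain inside the gene, away from its 18709 bp promoter domain, went from 11176 bp (chromosome 9, 125883705 to 125894880) to 5805 bp in 3 pieces, a ratio of 0.519, and its Pol II cover from 89.0 to 72.6%. The promoter domain of PBX3 kept a ratio of 0.982. The others were OTULINL (8827 to 5249 bp, 0.595), PHF10/DYNLT2 (14704 to 9390 bp, 0.639), PHF10 being a subunit of a SWI/SNF chromatin remodelling complex, and PHRF1 (8758 to 5733 bp, 0.655). They were followed by a domain without a named gene on chromosome 17 (20837844 to 20845918, 0.684), SFPQ, a nuclear RNA-binding protein (0.701), ADGRL2 (0.709) and SLC22A15 (0.721). In SFPQ Pol II still covered 100% and 98.5%. In OTULINL its cover was 60.8% in control and 34.0% in knockdown.

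At least 1.5 times wider were 7 domains, 1.54% (interval 0.619 to 3.14), against 4.74% of all shared control peaks and 1.02% of those of 4000 to under 8000 bp. They were SLBP/TMEM129 (9214 to 16794 bp, 1.82), METTL23/SRSF2/MFSD11 (9093 to 15781 bp, 1.74), CREB3L4/SLC39A1 (1.63), a lncRNA domain on chromosome 12 (116661009 to 116670008, 1.62), a domain within BCOR, a transcriptional corepressor (1.58), RECQL4/LRRC14 (1.57) and TRPT1/NUDT22/DNAJC4 (1.54). SP9 was next at 1.40. A second BCOR domain, which holds an end of the gene (8209 bp), had a ratio of 0.893. In all 7 the knockdown peak also overlapped a neighbouring control peak, so a gap between 2 control peaks was closed. At METTL23/SRSF2/MFSD11 a gap also opened inside the domain. There the control domain began at -4546.5 bp from its centre. The knockdown peak from the neighbour ended at -4464.5 bp, and the next knockdown peak began at -3487.5 bp. With those neighbours counted on the control side, 0 of the 456 loci were 1.5 times wider and 4 were 1.5 times narrower. At SLBP, which encodes the protein that binds the stem-loop of histone mRNAs, the map of peaks shows the neighbour across a short gap.

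**Figure D5:**
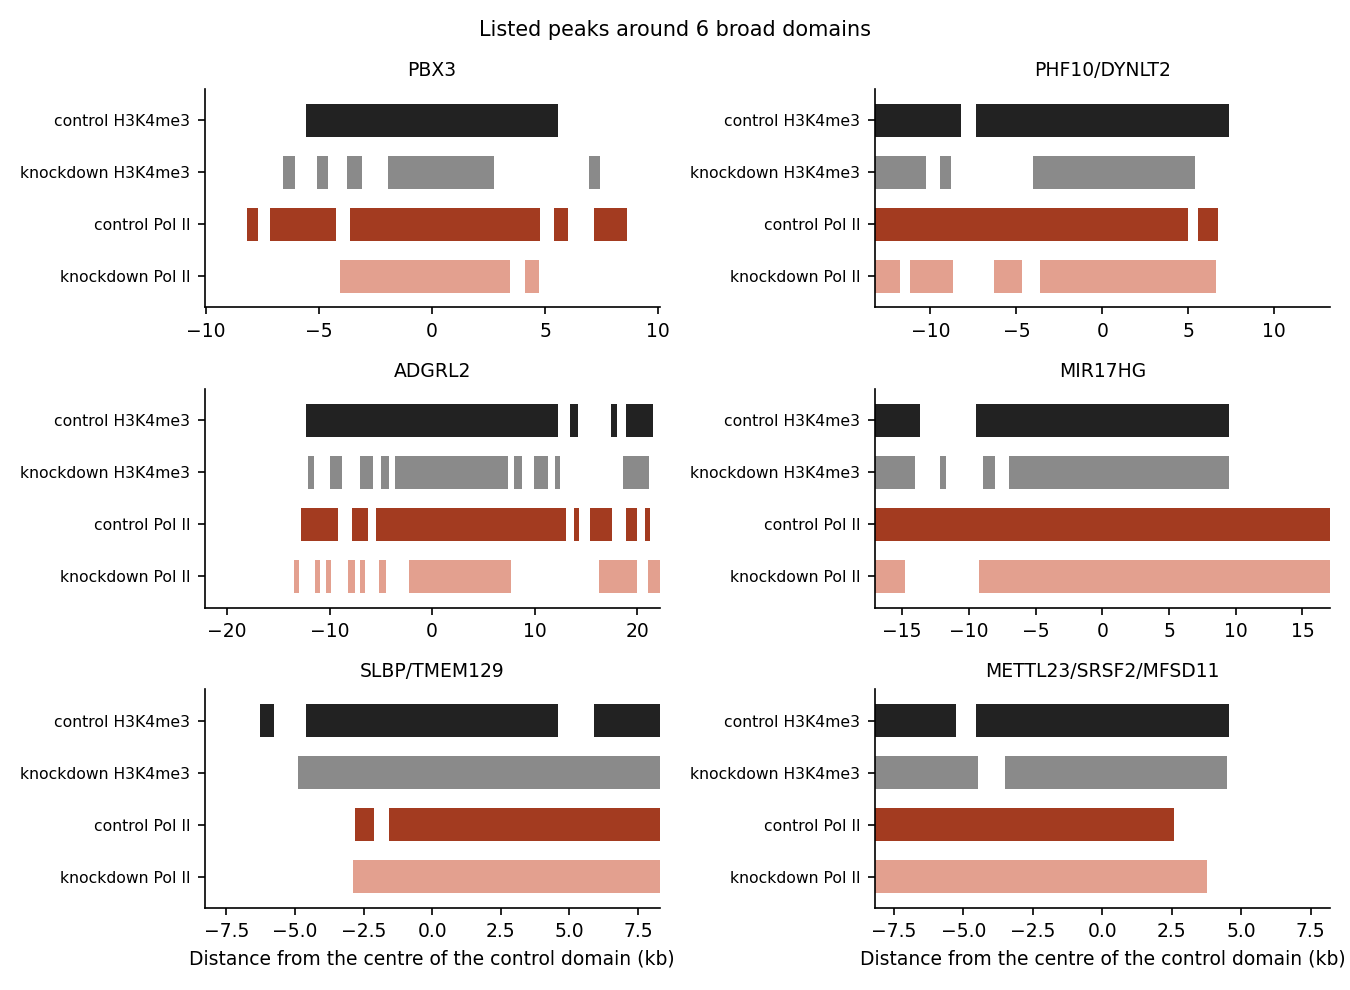
Listed peaks of the 4 ChIP lists (rows) around 6 domains, against distance from the centre of the control domain (x axis, kb); bars are drawn to scale and end at the edge of each window. PBX3, PHF10/DYNLT2, ADGRL2 and MIR17HG had narrower or more broken knockdown H3K4me3 (ratios 0.519, 0.639, 0.709 and 0.921), while at SLBP/TMEM129 and METTL23/SRSF2/MFSD11 knockdown peaks run into a neighbouring control peak (1.82 and 1.74). The METTL23/SRSF2/MFSD11 domain is also broken by a gap in knockdown.

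The 10 widest domains kept between 0.709 and 0.999 of their control width. The HOXA domain had 43370 bp in 1 knockdown peak (0.974), COMMD3/BMI1/SPAG6 37738 bp (0.999), SATB1 35883 bp (0.979), SKIDA1/MLLT10 34046 bp in 2 pieces (0.935) and the MIRLET7BHG domain 35243 bp (0.984). FAF1/CDKN2C had 28621 bp (0.874), PARP8 29454 bp in 4 pieces (0.917), MBNL1 23505 bp in 3 (0.895), ADGRL2 17468 bp in 8 (0.709), and EHBP1/OTX1 21995 bp in 2 (0.940). All were thus below 1, and 5 of the 10 were split. QKI, the knocked-down gene, had 8109 of 10245 bp (0.792) and Pol II cover of 64.8 and 67.9%.

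Among the gene lists, members stood on both sides of 1. Only domains that hold an end of a listed gene were counted. The median ratio was 0.972 over the 10 domains of the MLL-fusion and self-renewal list, 0.973 over the 8 of myeloid transcription factors, 0.927 over the 9 of splicing factors, 0.905 over the 8 of cell cycle and apoptosis genes and 1.01 over the 6 of immediate early regulators, beside 0.954 over all domains. Domains inside listed genes without an end, as at PBX3, JMJD1C, MBNL1 and CELF2, are not in these medians. Wider in knockdown were IKZF1 (1.23), LMO2 (1.11), CEBPA (1.06), HNRNPA2B1 (1.16), ZFP36 (1.17) and AZU1 (1.12). Narrower were MYB (0.874), CDK6 (0.870), BCL2L11 (0.871), TRA2B (0.864) and HNRNPD (0.888). The sizes of these lists leave each median resting on few domains.

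Pol II cover of the domains was alike in both conditions in the middle, and differed at single loci. Among the 449 domains with Pol II in both lists the median ratio of covered bases was 1.00, and 221 had fewer covered bases in knockdown. At least 1.5 times more bases were covered in 25, 5.57% (interval 3.64 to 8.11), against 11.0% of all control peaks with Pol II in both lists, and at least 1.5 times fewer in 13, 2.90% (1.55 to 4.90), against 6.90%. Those control peaks are of all widths, and peaks of a width near that of the domains were not compared on this count. By the number of covered bases, cover went down most in ADGRL2 (91.4 to 51.8%), a lncRNA domain on chromosome 1 (189146874 to 189165028, 65.1 to 28.7%), PHIP (94.96 to 66.5%), TPRN/TMEM203/NDOR1 (83.1 to 39.3%) and PSMA1/PDE3B (62.8 to 26.5%). By the same count it went up most in GRB2, a signalling adaptor (40.3 to 75.8%), MGAT1 (66.0 to 91.7%), TRPS1 (32.7 to 60.9%), PSME1/PSME2, proteasome activator genes (60.6 to 86.0%), and CAT, catalase (26.1 to 62.7%). ADGRL2 was low on both measures, but over the 449 domains the width ratio and the Pol II ratio gave a Spearman rho of 0.13, a description across domains.

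The widest domains showed a lower Pol II cover in knockdown when chosen by control width. Over the 116 domains of 12000 bp or more the median cover was 92.6% in control (interval 87.6 to 94.0) and 84.6% in knockdown (80.2 to 88.4), and 71 of them had fewer covered bases in knockdown. The median change per domain was -2.72 percentage points. Over the 252 domains of 8000 to under 10000 bp it was 1.00 point, with 103 of 247 lower. When the 102 knockdown peaks of 12000 bp or more were taken instead, cover was 90.3% in control and 87.2% in knockdown, 48 of 102 were lower, and the median change was 0. The lower cover therefore depended on the list that chose the domains.

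QKI5 CLIP peaks, which mark RNA that came down with QKI5 after UV crosslinking, fell in 59 domains in control and 8 in knockdown. These are 12.9% (interval 9.997 to 16.4) and 1.75% (0.760 to 3.43), where 2.67 and 0.346% of all control H3K4me3 peaks held one. Peaks of 6000 to under 8000 bp held one in 8.52% (6.87 to 10.4) and 1.59%. Per megabase the order was not kept, as the domains held 18.6 control CLIP peaks and peaks of 6000 to under 8000 bp 21.9, so the higher share went with greater width. The 96 control CLIP peaks had a median of 11 reads and the 13 knockdown ones of 10, as the authors' lists give them. Control CLIP peaks of the domains lay on the strand of their gene in 58 of 58 cases where the promoter table gave one. That gene is the one the authors' list names for the peak. Whether the naming used the strand is not stated, so the agreement is no test of strand.

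GATA2, a transcription factor of blood progenitors, held the most control CLIP peaks, 5 in a domain of 8688 bp. One was in GATA2 itself (chromosome 3, 128487234 to 128487309, minus strand, 10 reads, log2 enrichment 4.44) and 4 were in the antisense RNA GATA2-AS1 on the plus strand (9 to 11 reads). IRS2, an insulin receptor substrate, and TSC22D2 held 4 each, the IRS2 ones with 10 to 16 reads. ZFP36, PTGES3, ANXA2R, BAZ2B/MARCHF7, MGME1/SNX5 and EXOC8/SPRTN held 3 each. CDK6 held 2, RUNX1 had 1 of 8 reads (log2 enrichment 6.92), and MEF2C had 1 in the gene and 1 in MEF2C-AS1. Many of these peaks are adjacent pieces a few bases apart, so their number is not a number of separate binding sites. None of GATA2, IRS2, TSC22D2 and ZFP36 had a knockdown CLIP peak. This held for most domains, as 4 of the 59 with a control CLIP peak also had a knockdown one (6.78%). The lower number in knockdown was not particular to the domains. Of all 21953 control H3K4me3 peaks, 586 held a control CLIP peak and 76 a knockdown one. The share with both is given for the domains only. In the order GATA2, IRS2, TSC22D2 and ZFP36, the H3K4me3 width ratios were 1.02, 0.889, 0.982 and 1.17.

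The 13 knockdown CLIP peaks included several in NEAT1 and in small nucleolar RNAs. NEAT1 had a peak of 150 reads (chromosome 11, 65429433 to 65429569) beside one of 18, and in control a peak of 100 reads at 65429473 to 65429570. In the ZNFX1 domain SNORD12B had 67 and 61 reads in knockdown and 98 in control. SNORD28 and SNORD30 in the SLC3A2 domain had 9 and 12 reads, SNORD96A in the RACK1 domain 10, and NME4 11 and 10. In control SNORD28 had 16 reads, and peaks of 29 reads named for GNB2L1 overlapped the SNORD96A peak. IRF2BP2 (8 reads), MBNL1 (6) and AAK1 (6 and 6) completed the 8 domains. In 4 domains a CLIP peak was listed in both conditions.

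Domains with and without control CLIP peaks had similar widths in knockdown. The median ratio was 0.947 over the 59 with and 0.954 over the 397 without, and 67.8 and 73.6% were below 1. Control Pol II covered a median of 80.8% and 77.1% and knockdown Pol II 78.9% and 76.7%. Domains with a CLIP peak were wider, with a median of 10159 against 9637 bp. RNA levels were not analysed here.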

How the data were processed

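THP-1 cells carrying sh-control or sh-QKI5 were profiled by H3K4me3 ChIP, Pol II ChIP and QKI5 CLIP. Every assay and condition has 1 deposited peak list, which per the labels' series text pools its replicates. The ChIP lists give peak positions and a score that the authors set to 1 at every peak. The deposited CLIP lists have no header, and the authors' -log10 p, up to 400, and log2 enrichment were recognised from their values, beside a read number for each peak. HOMER and GRCh38.p5 are named in the submitters' processing notes with no role; the aligner and the peak caller settings were not given in the sources used here.

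Overlap needed 1 bp, and CLIP peaks were matched by position. Gene names came from RefSeq (GRCh38.p14), whose patches leave the primary chromosomes unchanged; its promoter table covers 79.1% of protein-coding genes and 1562 hairpins were in its microRNA table. A gene end is either outer end of a gene. A domain is named by the coding genes with an end inside, else by an overlapping gene. Domains named were the widest, those with extreme width ratios, Pol II cover or CLIP, those nearest the limit, and examples of each list. Members and lists were chosen with earlier results of these data known, and the finer width classes above 8000 bp after seeing the data. Some named items are not reported here. Overlap code was tested on simulated intervals. Python 3.11.15, pandas 2.3.3 and SciPy 1.17.1 were used.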

Additional observations from a re-analysis of the deposited data

How the results depend on the processing

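A width limit of 6000 bp gave 1465 domains and one of 10000 bp gave 204. The median width ratio was 0.934 counting only bases of the control domain, 0.984 for domains chosen in the knockdown list and, added after seeing the data, 0.969 for loci chosen by mean width. Domains at least 1.5 times narrower numbered 45 by the widest knockdown peak alone, 25 at a milder fold and 0 at 2 times. Wider ones numbered 0 at 2 times and 0 with neighbouring control peaks counted, the latter added after seeing the data. Asking for 50% cover, Pol II overlapped 80.7% of domains in control and 83.1% in knockdown. At limits of 6000 and 10000 bp its median cover was 66.0 and 88.3% in control and 67.1 and 81.3% in knockdown. CLIP peaks of at least 10 reads lay in 9.43% of domains, and any overlap with a coding gene was met by 93.4%. The other 15 alternatives stayed within the interval of the value given or, for counts, within 1.5 times of it. Among these, merging peaks within 1000 bp gave 549 domains, and 9 domains were wider at the milder fold. No paired analysis was possible because each list pools both replicates, and for the same reason no replicate could be left out. Depth was not known, so no limit of detection can be given, and gaps within a domain cannot be separated from a lack of reads.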

Other observations

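Some broad domains stood in rows along the chromosome. With a gap of at most 10000 bp, a distance chosen after the values were seen, 26 domains formed 12 rows, 2 of which had 3 members. MBNL1 held 3 in a span of 65861 bp on chromosome 3, with 54069 bp of control and 50470 bp of knockdown H3K4me3. The MIR17HG domain ended a row of 3 in 46188 bp on chromosome 13, where 38704 bp of control stood against 34790 bp of knockdown H3K4me3. MIR1915HG and SKIDA1/MLLT10 formed a pair in 48862 bp, and 2 domains around PRR34 and MIRLET7BHG another in 48385 bp. Control and knockdown widths summed to 30394 and 22627 bp in the PHF10 pair and to 27935 and 28020 bp in the KCNN2 pair.

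Several genes held more than 1 domain at separate places. ELF1, an ETS transcription factor, JMJD1C, KCNN2 and MBNL1 had 3 each. The 3 MBNL1 domains were covered to 97.9, 100 and 100% by control Pol II and to 88.6, 77.3 and 73.3% by knockdown Pol II, and their width ratios were 0.895, 0.998 and 0.939. The 3 JMJD1C domains had ratios of 0.949, 0.916 and 0.921.

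Broad domains made up 16 of 446 control peaks on chromosome 13 (3.59%), 35 of 1090 on chromosome 12 (3.21%) and 5 of 568 on chromosome 20 (0.880%), chromosomes picked after their values were seen.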
